A study of Mus musculus with 42 samples.

Results

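Baseline gene expression was compared between the lung and the liver of 4 vehicle-treated mice, 1 array for each tissue of each mouse, so 8 of the 42 arrays of the series. The members were the lung and liver arrays whose titles give dose group D0, and mouse numbers 1 to 4 in the titles tied the tissues of an animal to each other. All 4 animals were male Muta™Mouse, a transgenic strain that carries a bacterial reporter gene for mutation scoring, about 11 weeks old and housed singly. They had olive oil alone by gavage on each of 28 days, at a benzo(k)fluoranthene (BkF) dose of 0, and tissue was taken 72 hours after the last gavage. Total RNA came from random sections of the organs, so each array is a mixture of all cell types of that tissue. Each sample was labelled with Cy5 and hybridised against Cy3-labelled Universal Mouse Reference RNA, a pool made from mouse cell lines, and no dyes were swapped. The lungs lay on 4 slides and the livers on 2 other slides, read with another version of the scanner software, so tissue and slide cannot be told apart.

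The liver is the main organ of drug and foreign-compound metabolism. Phase I enzymes such as the cytochromes P450 and flavin monooxygenases (FMO) oxidise a compound, phase II enzymes attach glucuronic acid, sulfate, glutathione or another group, and transporters carry parent compound and product across the membrane. Nuclear receptors and the aryl hydrocarbon receptor (AhR) sense the compounds and switch on many of these genes. The lung has a narrower set of such enzymes, held largely in club and alveolar type 2 cells, next to the surfactant, gas exchange and airway clearance machinery that defines it.

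Promoters of 7 genes are shown because the results refer back to them: the first 5 belong to genes at least 8-fold apart whose named factors have a textbook role in that tissue, and the other 2 are the Cyp1a pair, AhR targets with opposite directions. Each of the first 5 holds a match to a motif marked below, so they are not typical of such genes, whose shares follow the sequences. The sequences are RefSeq promoters of build GRCm38.p6, 250 bases before to 50 bases after the start site, 5′ to 3′ on the gene's strand. In the first 4, all much higher in liver, capitals mark matches to HNF4 (CAAAGTCCA), FOXA (TGTTTAC) or C/EBP (TTGCNNAA). In Sftpb, surfactant protein B, capitals mark NKX2-1 (CTCAAG), and in the 2 members of the Cyp1a pair they mark the core of the xenobiotic response element (GCGTG) bound by AhR. Each motif was searched on both strands.
Cyp3a11, chr5:145879805-145880104 (minus strand): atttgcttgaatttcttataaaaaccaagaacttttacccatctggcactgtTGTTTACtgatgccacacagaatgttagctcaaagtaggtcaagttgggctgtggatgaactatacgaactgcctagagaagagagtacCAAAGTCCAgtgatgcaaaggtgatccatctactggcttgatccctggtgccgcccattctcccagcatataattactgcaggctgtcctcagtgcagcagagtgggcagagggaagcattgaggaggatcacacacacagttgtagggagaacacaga
Cyp2c70, chr19:40187237-40187536 (minus strand): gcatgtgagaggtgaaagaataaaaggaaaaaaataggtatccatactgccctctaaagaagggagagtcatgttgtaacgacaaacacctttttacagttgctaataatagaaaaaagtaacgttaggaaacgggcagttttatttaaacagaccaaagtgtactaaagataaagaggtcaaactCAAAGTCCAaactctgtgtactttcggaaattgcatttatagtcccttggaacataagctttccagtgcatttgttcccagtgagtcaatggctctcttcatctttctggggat
Cyp8b1, chr9:121916256-121916555 (minus strand): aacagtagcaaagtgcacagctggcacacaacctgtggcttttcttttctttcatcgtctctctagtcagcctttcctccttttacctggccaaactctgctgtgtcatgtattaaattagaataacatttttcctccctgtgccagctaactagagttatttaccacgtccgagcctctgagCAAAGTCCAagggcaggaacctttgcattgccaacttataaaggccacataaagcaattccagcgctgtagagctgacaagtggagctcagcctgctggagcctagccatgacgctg
Alb, chr5:90460620-90460919 (plus strand): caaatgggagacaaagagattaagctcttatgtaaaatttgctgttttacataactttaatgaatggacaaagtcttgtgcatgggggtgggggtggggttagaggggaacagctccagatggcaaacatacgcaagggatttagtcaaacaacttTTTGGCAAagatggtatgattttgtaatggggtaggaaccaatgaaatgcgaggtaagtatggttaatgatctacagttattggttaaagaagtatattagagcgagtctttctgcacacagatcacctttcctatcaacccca
Sftpb, chr6:72304360-72304659 (plus strand): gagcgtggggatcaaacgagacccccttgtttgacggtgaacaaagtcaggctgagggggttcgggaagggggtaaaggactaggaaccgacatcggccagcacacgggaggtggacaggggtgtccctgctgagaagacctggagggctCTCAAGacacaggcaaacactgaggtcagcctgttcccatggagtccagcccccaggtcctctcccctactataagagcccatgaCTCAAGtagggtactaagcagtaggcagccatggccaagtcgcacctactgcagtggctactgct
Cyp1a1, chr9:57697363-57697662 (plus strand): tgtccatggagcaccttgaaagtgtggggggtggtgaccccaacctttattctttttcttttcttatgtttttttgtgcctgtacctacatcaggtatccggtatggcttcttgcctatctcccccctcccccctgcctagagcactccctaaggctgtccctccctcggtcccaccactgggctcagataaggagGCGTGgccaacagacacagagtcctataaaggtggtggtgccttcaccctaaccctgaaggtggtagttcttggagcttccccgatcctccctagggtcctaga
Cyp1a2, chr9:57683606-57683905 (minus strand): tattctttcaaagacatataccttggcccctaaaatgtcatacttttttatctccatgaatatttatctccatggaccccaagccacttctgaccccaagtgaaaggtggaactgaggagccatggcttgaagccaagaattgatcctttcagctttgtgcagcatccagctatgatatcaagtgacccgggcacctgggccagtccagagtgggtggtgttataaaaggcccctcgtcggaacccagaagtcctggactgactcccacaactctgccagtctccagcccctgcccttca
The HNF4 match lay at bases -109 to -101 from the start of Cyp3a11, at -64 to -56 of Cyp2c70 and at -67 to -59 of Cyp8b1. Cyp3a11 also held the FOXA letters at -198 to -192, and Alb, the albumin gene, held the C/EBP letters at -94 to -87. Sftpb held the NKX2-1 letters at -100 to -95 and again at -15 to -10. Cyp1a1 held GCGTG at -54 to -50 and Cyp1a2 did not hold it in this window. Among the 692 promoters of the 550 matched genes that were at least 8-fold higher in liver, 21 held the HNF4 letters (3.03%), against 1 of 688 promoters (0.145%) of the 524 matched genes at least 8-fold higher in lung, and 0.499% over genes with a tested probe. The C/EBP letters stood in 16.0%, 10% and 9.18% of these promoters in the same order and the FOXA letters in 5.20%, 2.76% and 2.78%. The NKX2-1 letters were about as frequent in lung genes (15.0%) as over all tested genes (14.3%) and stood in 12.1% of promoters of liver genes. GCGTG stood in 36.5% of promoters of lung genes, 31.1% of liver genes and 47.5% over all tested genes. Over all 32841 promoters in the RefSeq table the shares were 0.475% for HNF4, 3.65% for FOXA, 10.8% for C/EBP, 15.9% for NKX2-1 and 32.4% for GCGTG. These matches are descriptions and were given no test.

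Values are log2 ratios of the sample over the reference RNA, so 0 means the same signal as the reference. Differences are lung minus liver within mice, and a negative difference means higher in liver. They are given ± the moderated standard error of the paired limma fit over 4 mice. That fit draws the variance of each probe towards that of all probes. A probe was called when the adjusted p-value of the paired limma test was at most 0.05 and the tissues differed at least 1.5-fold, and a second count took those at least 8-fold apart. Of 25124 probes well above background on all 4 arrays of at least 1 tissue, 8427 (33.5%) were higher in lung and 6183 (24.6%) in liver. At 8-fold the counts were 886 (3.53%) in lung and 985 (3.92%) in liver. The values of the lungs and the livers did not overlap for 72.2% of these 25124 probes, which is the background where a gene is described as separate. Each gene was then represented by its brightest probe, which gave 13275 genes, of which 37.7% were higher in lung and 25.2% in liver, or 5.30% and 5.27% at 8-fold (62.9% in either direction and 10.6% at 8-fold). These gene shares, and a median difference of 0.20 over all genes, are the background for each gene group. The split between tissues rests on the scaling: with median centring in place of loess, 40.0% of called probes were higher in lung against 57.7% here, and the median over probes moved from 0.12 to -0.21. Where no array of a tissue exceeded background, a gene is given as "at least N-fold", from the lower of 2 scalings of the sample channel. This bound stands on the scale of the Cy5 sample channel, so it can lie above the fold of the log ratios where the Cy3 reference signal differed in the same direction. A gene above background in 1 tissue only entered the test through that tissue, so the filter favoured that direction. Bounds have no order among themselves, and medians over a list include the measured log ratios of such genes. For some genes the difference in the Cy5 channel alone is given beside the log ratio and called the sample-channel difference.

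The arrays matched their labelled tissue. The median over 12 alveolar type 2 cell markers was 4.86 to 5.49 on the lung arrays and 0.07 to 0.24 on the liver arrays, whereas the median over 12 hepatocyte markers was 0.03 to 0.33 on lung and 7.89 to 8.27 on liver. All 12 hepatocyte markers, all 10 periportal and all 9 tested pericentral hepatocyte markers were higher in liver. In lung, 11 of 12 alveolar type 2, 9 of 11 alveolar type 1, 12 of 12 ciliated and 13 of 14 endothelial markers were higher. Of the ciliated markers 7 were above background on no liver array. With the scanner software's log ratios 8 endothelial markers were higher in lung and 4 in liver, and under median centring 10 and 0. In mixed tissue, a higher signal for such a list cannot be told apart from more cells of that type. Arrays of a tissue correlated at 0.950 to 0.979 among lungs and 0.982 to 0.987 among livers, and lung with liver at 0.332 to 0.354.

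**Figure D1:**
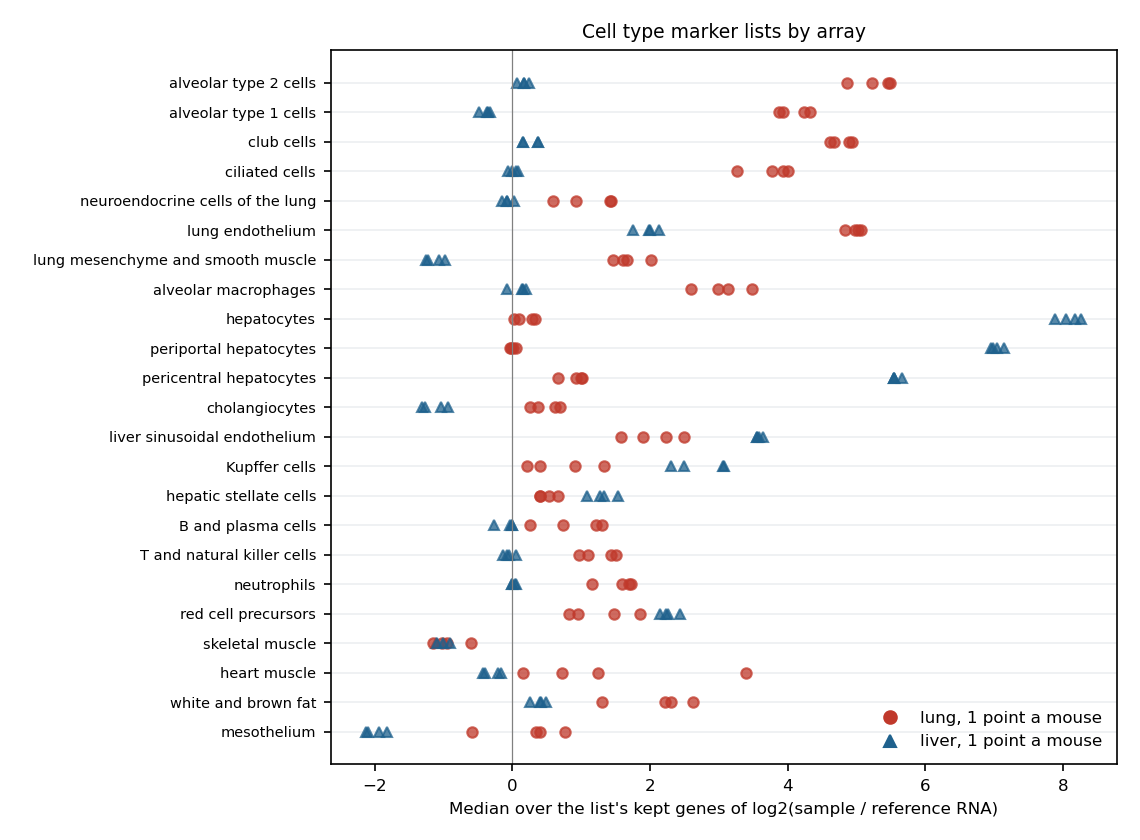
Median log2(sample / reference RNA) over the tested genes of each cell type marker list (x axis) on each array, with 1 red circle for each lung and 1 blue triangle for each liver. The alveolar type 1, alveolar type 2 and ciliated lists lie at 3.26 or more in lung and 0.24 or less in liver, hepatocyte lists at 5.54 or more in liver and 1.02 or less in lung, and the heart muscle list of 1 lung stands at 3.40 against 0.16 to 1.24 in the other lungs.

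Surfactant genes were mostly higher in lung. Sftpc, which encodes the alveolar surfactant protein C, had log2 ratios of 7.24, 7.02, 7.18 and 7.05 in the lungs of mice 1 to 4 and 0.22, -0.12, 0.13 and 0.01 in their livers. No liver array exceeded background, and lung was at least 4760-fold higher (adjusted p = 9.67e-10). The sample-channel difference of Sftpc, measured against livers at background, was 12.35, and the reference channel was also brighter on the lung arrays. Of 16 tested genes for surfactant and its secretion, 14 were higher in lung, 9 of them at least 8-fold, with a median of 3.88. They included Sftpb (at least 997-fold), the protease Napsa that processes surfactant proteins (at least 73.8-fold), and Sftpa1 (5.86 ± 0.13). The lipid transporter of lamellar bodies, Abca3, differed by 2.20 ± 0.10 and the surfactant phospholipid enzyme Lpcat1 by 2.95 ± 0.11. Scd1, which makes monounsaturated fatty acids, was the 1 gene of this list higher in liver (-2.26 ± 0.15), and the lysosomal protease Ctsh did not pass (-0.08 ± 0.13, adjusted p = 0.591).

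Airway and alveolar cell genes were mostly higher in lung. Scgb1a1, the secreted protein of club cells, had log2 ratios of 7.52, 6.19, 7.36 and 6.79 in lung and 0.04, 0.08, 0.11 and 0.11 in liver, so the spread among lungs was wider than for Sftpc and the tissues did not overlap. Lung was at least 3940-fold higher (adjusted p = 3.87e-08), with a sample-channel difference of 12.07. Of 8 tested club cell genes 6 were higher in lung and 2 in liver by log ratio, against 8 and 0 under quantile scaling and 7 and 0 in the sample channel. The 2 were Cyp2f2, whose direction is not settled, and the aldehyde dehydrogenase Aldh1a7 (-1.98 ± 0.12, but 0.69 under quantile scaling and not called in the sample channel, at -0.45). The median of that list was 2.16, and -0.67 over the 3 genes above background on all 8 arrays. Among ciliated cell genes the regulator of motile cilia Foxj1 differed by at least 11-fold, and the microtubule protein Tppp3 by 5.64 ± 0.10. Among type 1 cell genes the water channel Aqp5 (at least 182-fold), the anchoring protein Akap5 (at least 159-fold) and the receptor Ager (at least 143-fold) were called, and the homeodomain gene Hopx was not (0.37 ± 0.17, adjusted p = 0.0816), though its sample-channel difference was 3.91. The growth factor binding protein Igfbp2 of the type 1 list (-1.92 ± 0.27) and the fatty acid synthase Fasn of the type 2 list (-1.64 ± 0.13) were higher in liver. Of 5 tested neuroendocrine genes, none of them above background on any liver array, 3 were higher in lung, among them the peptide genes Grp (at least 2.06-fold) and Calca (at least 1.81-fold).

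Of 17 tested transcription factors of lung development, 16 were higher in lung and none in liver, with a median of 3.20. Nkx2-1, the factor that specifies lung epithelium, had log2 ratios of 4.75, 4.15, 4.62 and 3.92 in lung and -0.05, -0.01, -0.02 and 0.00 in liver. Its lung level was at least 16.1-fold higher (adjusted p = 9.35e-08). The mesenchymal factor Tbx4 differed by at least 16.9-fold and the type 2 cell factor Etv5 by 4.41 ± 0.12, and 9 of the 17 were not above background on any liver array.

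Extracellular matrix and vessel genes were also mostly higher in lung. Mgp, the matrix Gla protein that restrains calcification, had the largest difference towards lung among genes above background on all 8 arrays, with 6.49, 6.42, 6.42 and 5.65 in lung and -2.74, -2.93, -2.84 and -2.96 in liver, a 555-fold difference (adjusted p = 1.39e-09). Of 33 tested collagens and elastic fibre genes, 26 were higher in lung and 2 in liver, with a median of 3.24. Mfap4 (5.70 ± 0.11), Ogn (5.26 ± 0.12) and Timp3 (5.09 ± 0.10), an inhibitor of matrix proteases, were among the former, while the basement membrane collagen Col18a1 (-4.35 ± 0.11) and fibronectin, Fn1 (-1.55 ± 0.18), were higher in liver. Of 29 genes of oxygen, nitric oxide and peptide signalling in vessels, 24 were higher in lung, with a median of 2.45, including the VEGF receptor Flt1 (4.31 ± 0.10), the endothelial BMP receptor Acvrl1 (4.12 ± 0.12) and prostacyclin synthase, Ptgis (3.92 ± 0.14). The angiotensin receptor Agtr1a was the only one of them called higher in liver in this fit (-3.53 ± 0.16). Without mouse 4 or under median centring 3 of the 29 were called higher in liver, and 4 with the scanner software's log ratios.

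Other genes with the largest called differences towards lung, among those above background everywhere, were the calcium-binding protein S100a6 (7.28), the actin-severing gelsolin Gsn (7.16), the matrix-associated Sparcl1 (7.08), Tspan13 (6.48), Ahnak (6.43), Ctla2a (6.40) and lysozyme, Lyz1 (6.37). The carbonyl reductase Cbr2, also among these, belongs to foreign-compound metabolism and is described with it. Ahnak had 4 tested probes, whose differences ran from 0.77 to 6.43.

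Secreted plasma proteins lay far towards liver. Alb had log2 ratios of 0.30, 0.51, 0.40 and 0.11 in lung, where 1 of 4 arrays exceeded background, and 7.18, 7.33, 7.28 and 7.40 in liver. The log ratio difference was -6.97 ± 0.11 (adjusted p = 1.74e-09) and the sample-channel difference -11.30. Of 41 tested plasma proteins, 16 were above background on no lung array, and the 15 above it on all 8 arrays had a median of -4.93. Among all 41, 40 were higher in liver, 38 of them at least 8-fold, with a median of -7.34. They included Ambp (at least 2320-fold), Serpina3k (at least 1620-fold), Apoh (at least 751-fold) and Mup20 (at least 2160-fold), the last a major urinary protein whose near-identical relatives may share the probe. Coagulation factor F10 stood apart, higher in lung by its brightest probe (1.16 ± 0.20) and higher in liver by its other probe (-4.19), so its direction is not settled. Of 23 complement genes 21 were higher in liver, and the 1 higher in lung was Cfd, adipsin (at least 7.53-fold), with lung values of 4.79, 5.35, 5.12 and 1.49 and a measured log ratio difference of 4.16, or 5.09 without mouse 4. Markers of fat, among which Cfd is counted, were higher in lung for 4 of 6 tested genes and in liver for 2, Pck1 among them, with medians of 1.31 to 2.62 on lung and 0.26 to 0.49 on liver arrays, Adipoq, Plin1, Lep and Retn had no probe that entered the test, and the part of fat in the Cfd value was not tested.

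The transcription factors of hepatocytes divided. Hnf4a, which maintains the hepatocyte programme, had log2 ratios of -0.18, -0.05, -0.19 and -0.05 in lung and 5.87, 6.10, 5.89 and 5.89 in liver. No lung exceeded background, and liver was at least 278-fold higher (adjusted p = 1.58e-09), with a sample-channel difference of -8.23. Of 15 factors, 12 were higher in liver, with Onecut2 (-6.23 ± 0.16) and Nr5a2 (-5.55 ± 0.11) also far apart. In lung 6 of the 15 were above background on no array, and of the 5 above background on all 8 arrays 2 were higher in liver and 1 in lung. Foxa1 (0.49 ± 0.26, adjusted p = 0.118) and Foxa2 (-0.05 ± 0.20, adjusted p = 0.84), which act in both lung and liver epithelium, did not pass, while Foxa3 did (at least 19.2-fold). Cebpb was the 1 factor higher in lung (0.78 ± 0.16), with -0.01 under median centring.

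Intermediary metabolism lay towards liver. In the urea cycle and amino acid breakdown, 12 of 31 genes were above background on no lung array, and the 15 above it on all 8 arrays had a median of -4.84. Among all 31, 30 were higher in liver with a median of -6.26, among them Bhmt (at least 1570-fold), Hpd (at least 375-fold) and Dmgdh (at least 140-fold). The exception was Mat2a, the form of methionine adenosyltransferase used outside the liver (1.5 ± 0.11, or 0.55 and not called under median centring), while the liver form Mat1a differed by -6.96 ± 0.20. Glucose genes divided by isoform: 15 of 24 were higher in liver, among them Pck1 (at least 280-fold), Fbp1 (-8.59 ± 0.12) and Gys2 (at least 69.7-fold), and 6 were higher in lung, including Hk1 (3.64 ± 0.11), Aldoa (2.04 ± 0.10) and Pkm (1.99 ± 0.10), of which Aldoa (0.34) and Pkm (0.79) were not called under median centring. Bile acid synthesis and transport had 19 of 20 genes higher in liver, including the rate-limiting enzyme Cyp7a1 (at least 11.8-fold) and the bile salt pump Abcb11 (at least 196-fold). The exception was the carrier Slc10a1, whose probes disagree and whose direction is not settled. With the mean of a gene's probes all 20 were higher in liver. Of the 20, 10 were above background on no lung array. Fatty acid oxidation had 22 of 30 higher in liver and 6 in lung, or 22 and 3 under median centring, and Cd36, a fatty acid uptake receptor, was higher in lung (5.08 ± 0.11). Lipogenesis and cholesterol synthesis had 26 of 28 higher in liver and none in lung. Among genes above background on all 8 arrays the largest differences towards liver were in the fatty acid transporter Slc27a2 (-9.47, 707-fold), the sulfotransferase Sult2a8 (-9.14), haemopexin, Hpx (-9.03), Itih3 (-8.70), Cpb2 (-8.52), Cyp2c70 (-8.43), serum amyloid Saa1 (-8.36), the glucagon receptor Gcgr (-8.19), Agmat (-7.72) and the glutaminase Gls2 (-7.63).

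**Figure D2:**
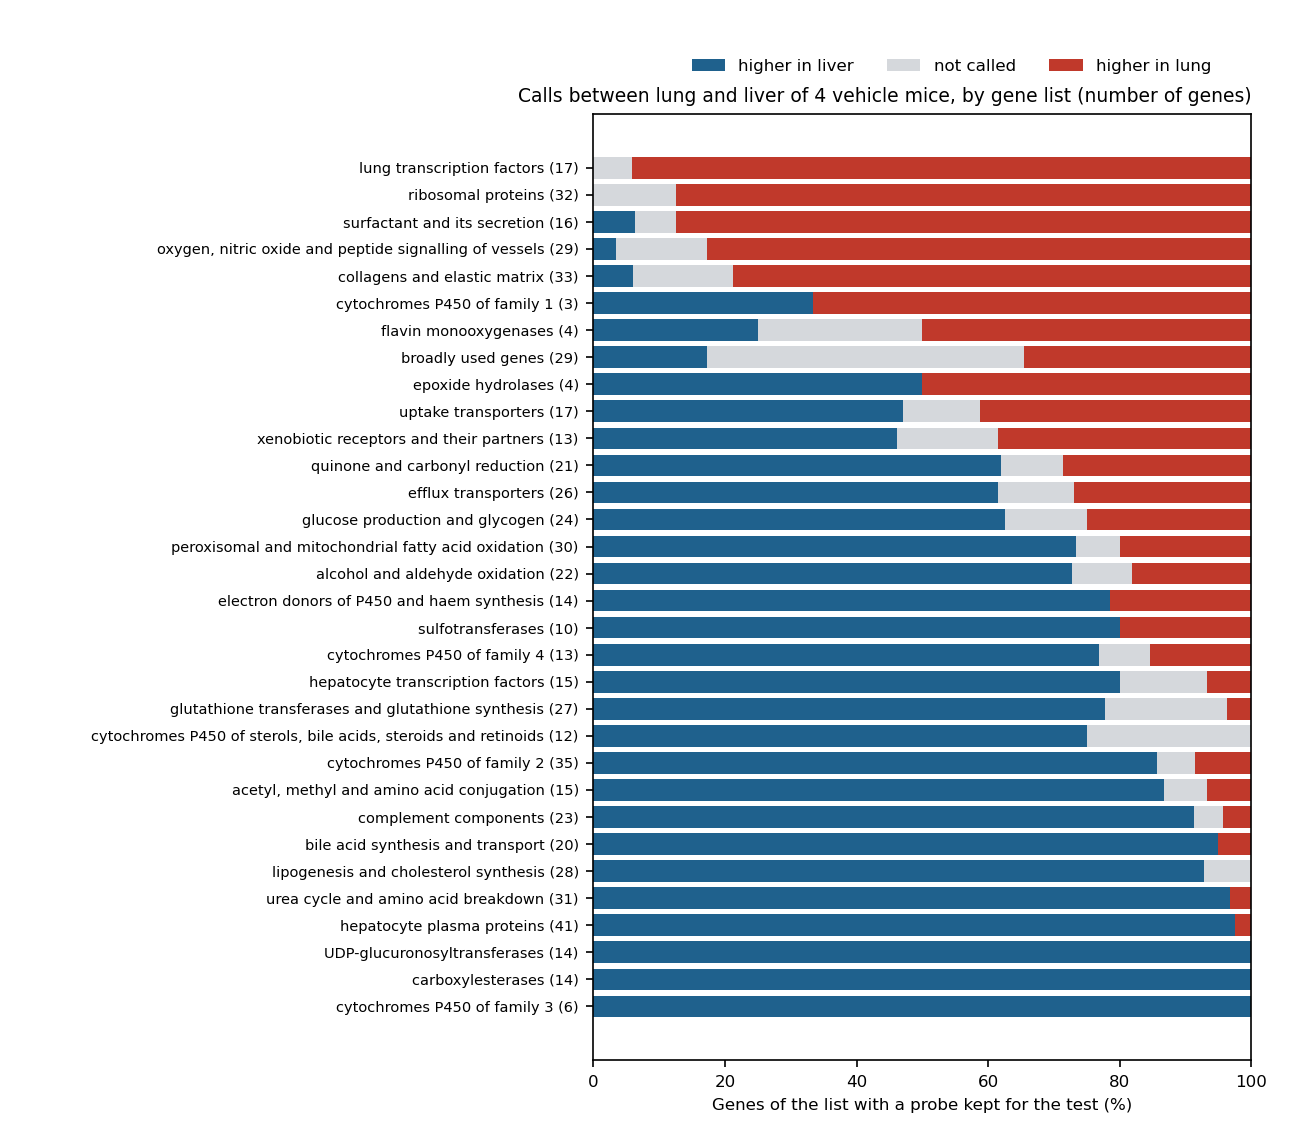
Share of the tested genes of each pathway list (x axis, percent) that were higher in liver (blue), not called (grey) or higher in lung (red), with the number of tested genes after each list name. Against a background of 25.2% of all genes higher in liver, the lists from the carboxylesterases to the plasma proteins are at or near 100%, while xenobiotic receptors, FMO and uptake transporters hold members of both directions.

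Of 13 tested receptors that sense foreign compounds and their partners, 5 were higher in lung and 6 in liver, against backgrounds of 37.7% and 25.2%. Under median centring 1 was higher in lung and 6 in liver. Ahr had log2 ratios of 1.88, 1.74, 2.23 and 1.87 in lung and 0.84, 0.47, 0.53 and 0.66 in liver, so every lung lay above every liver, by 2.48-fold (difference 1.31 ± 0.13, adjusted p = 3.04e-05). Its partner Arnt did not differ past the threshold (-0.01 ± 0.11, adjusted p = 0.959), and the repressor Ahrr was above background on no array of either tissue. The AhR target Tiparp (1.77 ± 0.11), the chaperone Hsp90ab1 of the receptor complex (1.32 ± 0.14, but -0.26 under median centring) and the oxidative stress regulator Nfe2l2, Nrf2 (1.44 ± 0.17), were higher in lung. Median centring left Ahr at 0.77 and Nfe2l2 at 0.78, neither of them called.

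Nuclear receptors of the hepatocyte had the opposite direction. Nr1i3, the constitutive androstane receptor, had 6.16, 6.27, 6.27 and 6.21 in liver and -0.35, 0.09, -0.06 and 0.17 in lung, where it was not above background, so liver was at least 38.4-fold higher. The pregnane X receptor Nr1i2 was at least 11.5-fold higher in liver, the bile acid receptor Nr1h4 at least 62.1-fold and its target Nr0b2 at least 13.3-fold. Ppara, the fatty acid sensor, was measured in both and differed 21.6-fold (-4.43 ± 0.13), and Rxra, the common partner of these receptors, differed by -1.90 ± 0.14.

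Family 1 cytochromes P450, the classic AhR targets, had opposite tissues for close neighbours. Cyp1a1 had log2 ratios of 3.29, 2.36, 2.09 and 2.96 in the 4 lungs and 0.23, -0.06, 0.00 and -0.09 in the livers, none of which exceeded background. Lung was at least 2.66-fold higher (adjusted p = 2.96e-06). Cyp1a2 had -0.21, 0.08, -0.03 and -0.05 in lung, above background on 1 of 4 arrays, and 6.11, 6.42, 6.26 and 6.34 in liver, a difference of -6.33 ± 0.09 (adjusted p = 1.24e-09). Every mouse had Cyp1a1 on the lung side and Cyp1a2 on the liver side. The start sites of the genes are 14.0 kb apart on chromosome 9, Cyp1a1 at 57697613 on the plus strand and Cyp1a2 at 57683655 on the minus strand (GRCm38.p6), and their promoters are among those printed above. Cyp1b1 was above background in lung only, at -1.93, -2.64, -2.01 and -1.42, and at least 1.91-fold higher there in the sample channel, where the difference was 1.15. Its log ratio difference of 0.71 was no longer called under median centring (0.43), quantile scaling (0.29) or without mouse 4 (0.54).

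Family 2 lay largely in liver: 30 of 35 tested genes were higher there, 24 of them at least 8-fold, with a median of -4.99, and 3 were higher in lung. Among them were Cyp2c54 (at least 348-fold), Cyp2c29 (at least 416-fold), Cyp2c70 (-8.43 ± 0.12) and Cyp2a12 (at least 413-fold). These subfamilies have near-identical members, and cross-hybridisation between them was not tested. Cyp2e1, which oxidises ethanol and small solvents, had 9.09, 9.29, 7.91 and 9.38 in liver and 2.35, 2.59, 3.28 and 1.70 in lung, so it was measured in both tissues and differed 86.6-fold (difference -6.44 ± 0.41, adjusted p = 2.41e-06). The liver of mouse 3 was the lowest of the livers for Cyp2e1 and the lung of mouse 3 the highest of the lungs, and without that mouse the difference was -7.04.

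A few family 2 and 4 members were lung genes. Cyp2s1 had 3.84, 3.14, 3.09 and 3.09 in lung and -2.75, -2.38, -2.80 and -2.37 in liver, a 58.3-fold difference (adjusted p = 4.41e-08). Cyp4b1, which activates pneumotoxic furans, had 8.30, 8.03, 8.28 and 7.81 in lung and 2.60, 2.68, 2.91 and 3.02 in liver, a 39.4-fold difference (adjusted p = 2.56e-08) that was 5.54 in the sample channel. For both genes every lung lay above every liver by a wide margin. Cyp2b9 (at least 3-fold), Cyp2j9 (1.04 ± 0.25) and Cyp4f18 (2.47 ± 0.15) were also higher in lung, the sample-channel difference of Cyp2j9 being 0.20.

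Cyp2f2 and Cyp2b10, both known from club cells, depended on the scale. Cyp2f2 had 6.67, 6.40, 6.62 and 6.51 in lung and 7.12, 7.38, 7.13 and 7.24 in liver, so by log ratio liver was higher (-0.67 ± 0.12, adjusted p = 0.00113), but the direction reversed to 1.31 in the sample channel and 2.14 under quantile scaling, and without mouse 2 the call was lost (-0.56). Its reference signal was higher on the lung arrays by 1.13. Cyp2b10 had 4.38, 4.16, 4.60 and 4.56 in lung and 4.88, 3.14, 2.06 and 5.08 in liver, where mice 1 and 4 lay above every lung and mice 2 and 3 below. The log ratio did not pass (0.63 ± 0.46, adjusted p = 0.238, or 0.00 without mouse 3), while the sample-channel difference was 5.01 (adjusted p = 2.84e-06), with the reference signal higher on lung arrays by 4.86. The cause of the reference difference was not tested, and no direction is drawn from the log ratio of either gene.

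All 6 tested family 3 genes were higher in liver, with a median of -7.35, and 5 of them were above background on no lung. Cyp3a11, the main drug-metabolising member, had 9.00, 8.66, 8.17 and 8.86 in liver and -0.07, -0.32, -0.04 and -0.09 in lung, at least 113-fold apart (adjusted p = 2.31e-09). Cyp3a25 differed by at least 169-fold. Of 13 family 4 genes 10 were higher in liver, among them the fatty acid hydroxylases Cyp4a12a (at least 188-fold) and Cyp4f14 (at least 164-fold). Of 12 P450s of sterols, bile acids, steroids and retinoids 9 were higher in liver and none in lung, among them Cyp8b1 (at least 31.9-fold), which makes cholic acid.

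Genes of the P450s' electron supply and of haem synthesis lay mostly towards liver, with 3 of 14 higher in lung and none of them under median centring. Por, the reductase that all microsomal P450s depend on, had 1.48, 1.14, 1.02 and 1.36 in lung and -0.11, 0.49, -0.32 and 0.79 in liver and was 2.05-fold higher in lung (difference 1.04 ± 0.18, adjusted p = 0.000983), though at 0.13 under median centring it was not called. The 11 higher in liver included cytochrome b5, Cyb5a (-2.11 ± 0.10), and the haem enzymes Cpox (-3.60 ± 0.11) and Alad (-2.50 ± 0.10). Alas1, the first enzyme of haem synthesis, was higher in lung by its brightest probe (1.59 ± 0.33), with liver values of 2.11, 3.73, 2.06 and 1.42, but its other probe gave -0.46 and under median centring it was not called (0.59). Hmox1 differed by 0.79 ± 0.10 in log ratio and turned to -0.09 in the sample channel.

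**Figure D3:**
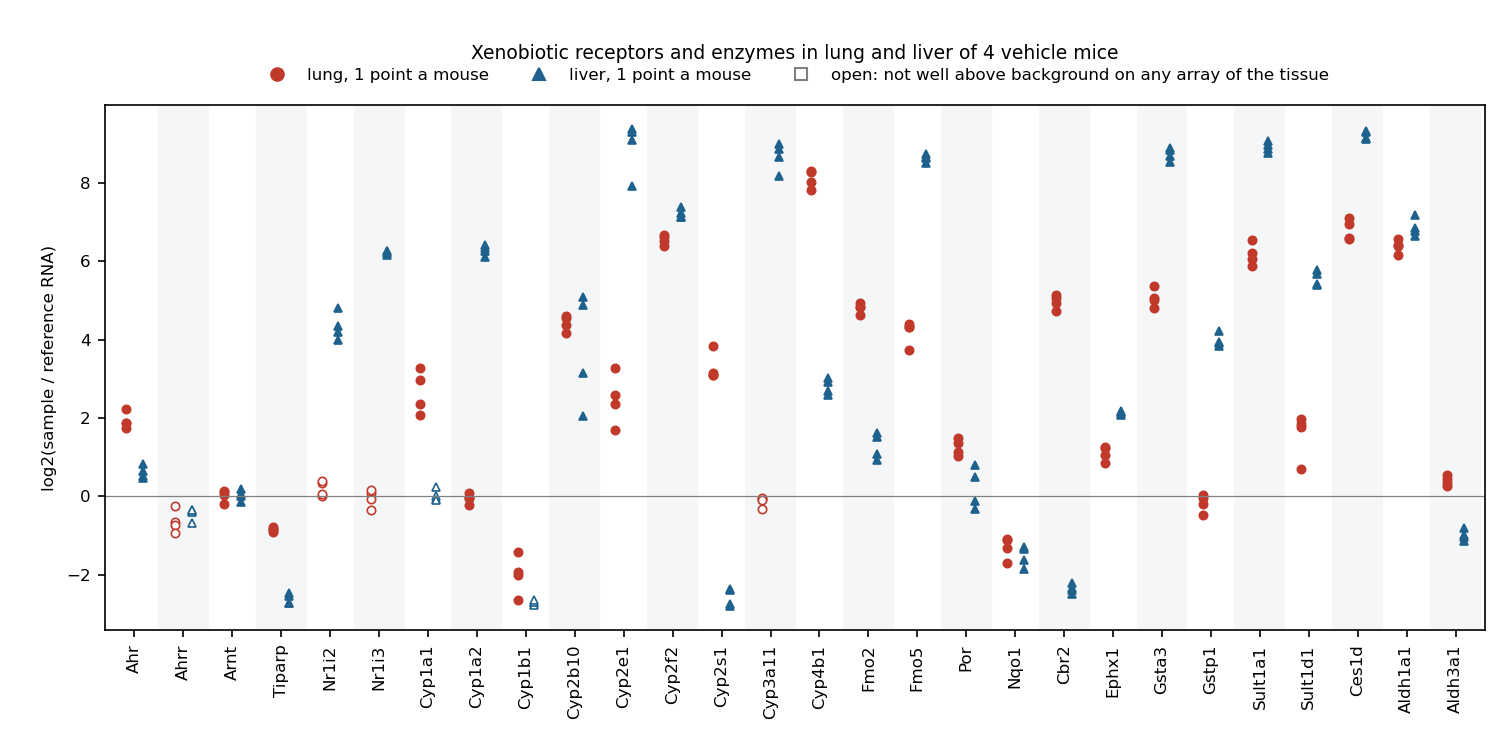
Log2(sample / reference RNA) of receptors and enzymes of foreign-compound metabolism (y axis) in each lung (red circles) and liver (blue triangles), 1 point a mouse, with open symbols where no array of the tissue was well above background. Cyp1a1, Cyp2s1, Cyp4b1, Fmo2 and Cbr2 lie higher in lung, Cyp1a2, Cyp2e1, Cyp3a11, Gsta3 and Gstp1 in liver, and the 4 livers of Cyp2b10 spread from 2.06 to 5.08.

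Flavin monooxygenases, which oxidise nitrogen and sulfur atoms, differed in tissue by member. Fmo2, the lung form, had 4.93, 4.84, 4.84 and 4.64 in lung and 1.07, 1.61, 0.94 and 1.52 in liver, a 11.5-fold difference (adjusted p = 3.03e-07) with a sample-channel difference of 6.28. Fmo5 had 4.33, 4.41, 4.33 and 3.73 in lung and 8.52, 8.73, 8.66 and 8.63 in liver and was 21.6-fold higher in liver (adjusted p = 3.7e-08). Fmo1 did not pass (-0.19 ± 0.18, adjusted p = 0.366), but its sample-channel difference was 1.19. The median of the 4 tested genes was 1.67 and -0.02 with the scanner software's log ratios, so no direction is given for the family as a whole.

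Hydrolases and reductases were divided by member. All 14 tested carboxylesterases, which cleave esters and amides, were higher in liver with a median of -4.57, among them Ces3a (at least 1140-fold) and Ces2a (at least 383-fold). Ces1d was bright in both tissues, with 6.95, 6.60, 7.10 and 6.58 in lung and 9.32, 9.13, 9.15 and 9.30 in liver, a difference of -2.42 ± 0.13 that was -1.39 in the sample channel but turned to 0.72 under quantile scaling. The soluble epoxide hydrolase Ephx2 (-6.67 ± 0.13) and the microsomal Ephx1 (-1.03 ± 0.11), which opens the epoxides that P450s form from polycyclic hydrocarbons, were higher in liver, while Ephx3 (0.89 ± 0.10, or 0.36 and not called under median centring) and Ephx4 (at least 1.96-fold) were higher in lung. Cbr2, the lung carbonyl reductase, had 5.14, 4.73, 4.94 and 5.06 in lung and -2.20, -2.40, -2.34 and -2.49 in liver, a 160-fold difference (adjusted p = 1.2e-09), and its other probe gave 7.04. Cbr3 (3.62 ± 0.09) and Akr1b10 (3.08 ± 0.16) were also higher in lung, whereas 13 of 21 genes of quinone and carbonyl reduction were higher in liver. Akr1c6, a hydroxysteroid dehydrogenase, had 11.69, 11.60, 11.65 and 11.80 in liver and -0.14, -0.12, -0.14 and -0.05 in lung, at least 1170-fold apart (adjusted p = 6.18e-10). The quinone reductase Nqo1, a shared AhR and Nrf2 target, did not pass (0.23 ± 0.18, adjusted p = 0.264).

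Alcohol and aldehyde oxidation had 16 of 22 genes higher in liver, among them Adh4 (at least 200-fold) and Aldh8a1 (-5.98 ± 0.11). The 4 higher in lung were Aldh3b1 (4.31 ± 0.13), the retinoic acid enzyme Aldh1a2 (at least 7.22-fold), Aldh3a1 (1.39 ± 0.11) and Maoa (0.99 ± 0.12). Aldh1a1, with 6.40, 6.57, 6.42 and 6.15 in lung and 6.84, 6.78, 7.18 and 6.65 in liver, was bright in both and fell short of the 1.5-fold limit (-0.47 ± 0.12), and its sign turned to 2.30 under quantile scaling and 0.57 in the sample channel.

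Conjugating enzymes were mostly higher in liver. All 14 tested UDP-glucuronosyltransferase genes and their cofactor enzymes were higher in liver with a median of -6.68, among them Ugt2b5 (at least 216-fold), Ugt2b38 (-9.16 ± 0.11) and Ugt2b34 (at least 123-fold). Of the 14, 7 were above background on no lung array, and the 3 above it on all 8 arrays had a median of -2.35. Of 10 sulfotransferase genes 8 were higher in liver, and the 2 higher in lung were Papss1, which makes the sulfate donor (0.90 ± 0.12, or 0.50 and not called under median centring), and the cholesterol sulfotransferase Sult2b1 (at least 1.21-fold), whose log ratio difference of 0.59 was not called without mouse 2 (0.52) or under median centring (0.51). Sult1d1 had 1.76, 1.86, 1.97 and 0.71 in lung and 5.68, 5.39, 5.43 and 5.77 in liver, 15.9-fold apart. Sult1a1, which conjugates phenols, differed by -2.74 ± 0.12 and by -3.06 in the sample channel, though its sign turned to 0.38 under quantile scaling.

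Glutathione transferases were measured in both tissues throughout: none of the 27 tested genes was below background on all arrays of a tissue. Of these, 21 were higher in liver, with a median of -1.52. Gstp1, which acts on diol epoxides of polycyclic hydrocarbons, had 0.03, -0.04, -0.19 and -0.47 in lung and 3.94, 4.21, 3.91 and 3.83 in liver, a 17.6-fold difference (adjusted p = 1.6e-08). Gsta3 had 5.00, 5.36, 5.07 and 4.82 in lung and 8.83, 8.69, 8.89 and 8.53 in liver, 12.8-fold apart. Gstp2 (-4.71 ± 0.14), Gstm6 (-4.57 ± 0.13) and Gstm7 (-4.52 ± 0.13) led in liver, as near-identical relatives whose probes may share signal. Mgst2, a membrane-bound form, was the only member higher in lung (2.13 ± 0.15). Gclc, the catalytic subunit of glutathione synthesis, differed by -0.62 ± 0.23, a call lost without mouse 1 (-0.60), mouse 3 (-0.58) or mouse 4 (-0.37), and its modifier subunit Gclm by -2.96 ± 0.10. Among acetyl, methyl and amino acid conjugation 13 of 15 genes were higher in liver, including Nat8 (-7.09 ± 0.16), Glyat (at least 40.8-fold) and the arylamine acetyltransferase Nat2 (-1.99 ± 0.11), and Inmt was the 1 higher in lung (0.59 ± 0.11), which was -0.60 under median centring and not called without mouse 1 (0.57) or mouse 3 (0.52).

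Transporters were mixed. Slco1b2, the hepatocyte uptake carrier for organic anions, had 10, 10.28, 10.26 and 10.16 in liver and 0.20, 0.06, 0.19 and 0.20 in lung, at least 547-fold apart (adjusted p = 6.18e-10). Of 17 uptake carriers 8 were higher in liver, among them Slc22a7 (at least 195-fold), and 7 in lung, among them Slco3a1 (4.38 ± 0.10), Slco4c1 (at least 4.36-fold) and the peptide carrier Slc15a2 (2.27 ± 0.20). The bile acid carrier Slc10a1 was called higher in lung by its brightest probe (1.74 ± 0.16) and higher in liver by its other probe (-6.54, above background on no lung), so its direction is not settled. Under median centring 4 uptake carriers were higher in lung and 8 in liver. With the mean of a gene's probes 6 uptake carriers were higher in lung and 9 in liver, and the list's median moved from -0.12 to -1.72. Of 26 efflux genes 16 were higher in liver, among them the canalicular pumps Abcc2 (at least 46.6-fold), Abcg5 (at least 32.5-fold) and Abcb4 (-4.89 ± 0.12), together with Abcg2 (-3.35 ± 0.12). The 7 higher in lung included Abcg1 (3.46 ± 0.10), Abcc5 (3.11 ± 0.11), Abca7 (2.50 ± 0.11) and Abcb1a (2.40 ± 0.21), a P-glycoprotein of blood vessel walls.

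Other resident cell types of the 2 organs gave mixed lists. Kupffer cell genes were higher in liver for 6 of 11 and in lung for 2, or for 3 and 2 of the 7 above background on all 8 arrays. The liver genes included Clec4f (at least 34.6-fold), Cd5l (-5.46 ± 0.42, or -6.11 without mouse 4) and Vsig4 (-4.91 ± 0.27), whereas alveolar macrophage genes were higher in lung for 10 of 12, among them Ear1 (at least 11.3-fold) and Siglecf (3.75 ± 0.25). Liver sinusoidal endothelium had 6 of 12 higher in liver, among them Clec4g (-5.08 ± 0.13) and Stab2 (-4.77 ± 0.10). Another 4 were higher in lung, among them the hyaluronan receptor Lyve1 (6.03 ± 0.18), a gene also known from lymphatic vessels. Of 10 cholangiocyte genes 3 were higher in liver and 7 in lung, the latter including the keratins Krt19 (5.81 ± 0.11) and Krt7 (5.59 ± 0.14), both also known from airway epithelium. Stellate cell genes were higher in liver for 5 of 12, among them Colec11 (-4.94 ± 0.15), and in lung for 3. White blood cell genes lay towards lung: 8 of 9 B and plasma cell, 9 of 12 T and natural killer cell and all 8 tested neutrophil genes were higher there, among them Cd79b (4.32 ± 0.18), Gzma (4.98 ± 0.16) and S100a9 (4.24 ± 0.26). Under median centring these counts fell to 5, 7 and 6, and in the sample channel 5 of the 8 neutrophil genes were higher in lung. Cd4 was the 1 T cell gene higher in liver (-3.40 ± 0.09).

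Heart muscle genes stood apart in the lung of mouse 2. The heart muscle list had medians of 0.72, 3.40, 0.16 and 1.24 on the lungs of mice 1 to 4 and -0.42 to -0.17 on the livers, and 5 of its 6 tested genes were higher in lung. Myh6, a heart myosin, had 3.43, 5.61, 0.54 and 4.88 in the lungs and 0.07, -0.05, -0.13 and -0.07 in the livers, with a wide error (difference 3.66 ± 0.69, or 2.99 without mouse 2 and 4.65 without mouse 3). Without mouse 2, 8570 probes were higher in lung and 6153 in liver. Mesothelial genes were higher in lung for 6 of 6. Skeletal muscle had 2 of 5 tested genes higher in lung and 1 in liver, and red cell precursor genes had 2 of 6 higher in lung and 4 in liver with a median of -1.30, which turned to 0.19 under quantile scaling. What these cells add to the lung lists was not tested.

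Genes that every cell uses were not level on this scale. Of 32 ribosomal protein genes, 28 were higher in lung and none in liver, with a median of 1.03 that turned to -0.53 under median centring. Of 29 broadly used genes 10 were higher in lung, 5 in liver and 14 neither, with a median of 0.14 that turned to -0.85 under median centring. Actb had 1.25, 1.09, 1.38 and 1.59 in lung and -0.54, -0.68, -0.65 and -0.81 in liver (2.00 ± 0.13, or 0.19 and not called under median centring), and Gapdh did not pass by its brightest probe (-0.31 ± 0.14), although its 7 probes ran from -2.50 to -0.31. The array design's 10 spike-in control probes differed by -1.09 to -0.30 between lung and liver arrays, with a median of -0.67. Differences of this order are within what the choice of scaling moves.

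The reference RNA was the same on all arrays, so its channel should carry no tissue difference beyond array effects, yet 5934 of the 25124 probes (23.6%) were called between lung and liver arrays in the Cy3 channel and 317 (1.26%) at 8-fold. Of these 317, 316 had moved the same way in the sample channel. Over probes at least 8 log2 units higher in lung in the sample channel (11 probes) the median reference difference was 3.04, and over those as far towards liver (108 probes) it was -2.64, against -0.05 over the 24208 probes within 4 units. Sftpc and Scgb1a1 had reference differences of 7.37 and 7.15, Alb of -6.69 and Hnf4a of -4.19. For such genes the log ratio is smaller than the difference in the sample channel, -6.97 against -11.30 for Alb. The cause was not tested. Mgp (-0.29) and Cyp1a1 (0.12) had little reference difference.

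**Figure D4:**
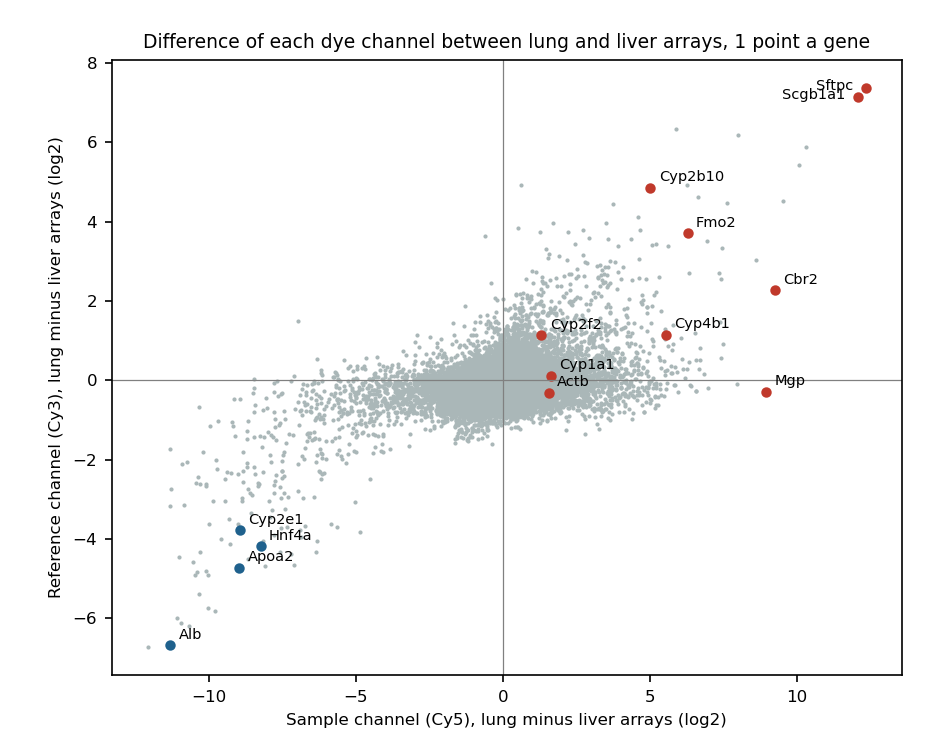
Lung minus liver difference of the Cy5 sample channel (x axis, log2) against that of the Cy3 reference channel (y axis, log2), 1 grey point for each tested gene, with named genes in red (higher in lung) or blue (higher in liver). The reference channel follows the sample channel at the extremes, at 7.37 for Sftpc and -6.69 for Alb, and lies near 0 for Mgp and Cyp1a1.

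The same contrast was available in 9 mice given BkF that had both tissues, arrays not used above: 2 at 25, 3 at 50 and 4 at 100 mg per kg body weight per day. Their lung arrays lay on the slides of the vehicle lungs and their liver arrays on those of the vehicle livers. Agreement between the sets therefore cannot tell tissue from slide. Of the 14610 probes called in vehicle mice (58.2% of those tested), 13124 (89.8%) were called in the same direction in the dosed mice and 3 in the opposite one, where 32.8% of all probes were called towards lung and 22.9% towards liver. Of the 1871 called at 8-fold (7.45%), 1834 (98.4%) had the same sign in every dosed mouse. Sftpc differed by 6.52 to 7.63, Hnf4a by -6.14 to -5.59 and Cyp3a11 by -8.76 to -7.17 over the 9 mice, as measured log ratios, though the tissue with the lower level of each was at background in the vehicle mice. The AhR targets ranged more widely, with Cyp1a1 from 1.31 to 7.12 and Cyp1b1 from 1.33 to 5.58, and Cyp1a2 stayed between -6.60 and -5.98. These ranges pool the 3 doses, and Cyp1a1 alone was 4.67 and 7.12 at the lowest dose, 5.41, 1.31 and 3.31 at the middle dose and 3.53, 2.24, 7.10 and 3.92 at the highest.

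**Figure D5:**
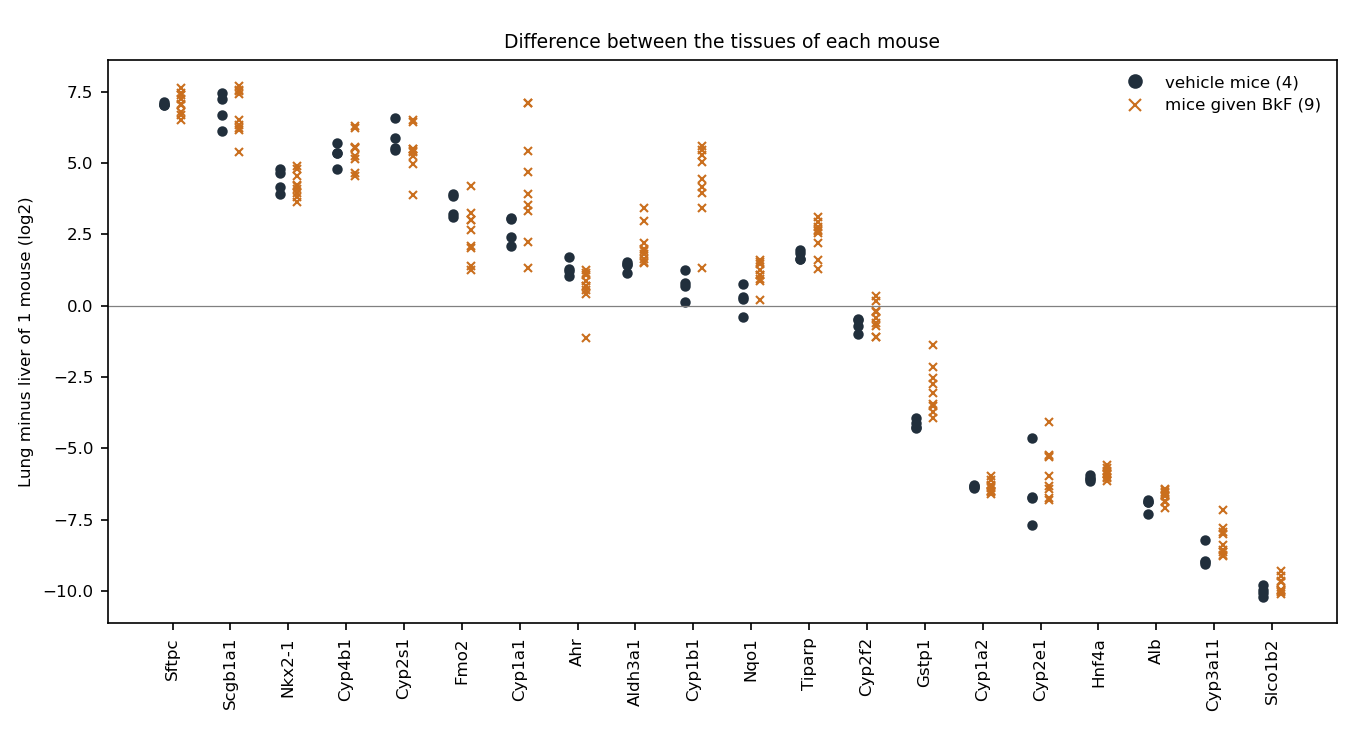
Lung minus liver difference within each mouse (y axis, log2) for named genes, with 1 black point for each of 4 vehicle mice and 1 orange cross for each of 9 mice given BkF. Tissue genes such as Sftpc, Hnf4a and Slco1b2 overlap between the sets, while Cyp1a1 and Cyp1b1 range more widely in dosed mice.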

How the data were processed

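Per the labels and the study's methods, the authors hybridised Cy5-labelled tissue RNA with Cy3-labelled reference RNA on 2-colour Agilent mouse arrays and deposited the scanner files, whose linear intensity values per spot were used here. The authors' deposited log10 ratio column of the scanner software, with its own dye normalisation, served as an alternative only. The authors' processed log2 table followed the scanner values of the lung arrays (r = 0.998 to 0.999) but not of the liver arrays (r = -0.003 to -0.002), so it was not used. No other columns were used.

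Median red over median green intensity without background subtraction was taken as log2 and normalised by loess within each array. Spots of a probe were averaged. Control spots and outlier flags were left out, which left 55681 probes, of which 26413 (47.4%) took a gene symbol through RefSeq accessions of GRCm38.p6. Depth does not apply to arrays. The precision is limited by 4 mice, with a median SD over tested probes of 0.17 among lungs and 0.14 among livers. The green background and red background medians lay at 18.0 to 29.0 and 62.0 to 70.0, under red medians of 75.5 to 119, so that 43.3 to 61.1% of red spots on lung and 39.8 to 45.3% on liver arrays were well above background, and none was saturated.

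Lung was compared with liver by limma 3.58.1 in R 4.3.3 with the mouse as a block, since each number names 1 animal, and Benjamini-Hochberg adjustment over all 25124 probes. Deviations of same-numbered arrays correlated at 0.12, 0.17, 0.06 and -0.04 for mice 1 to 4, where the highest correlation with another mouse was 0.03, 0.04, 0.08 and 0.11. The study's methods used MAANOVA with the same limits, an adjusted p of at most 0.05 and 1.5-fold, and limma stood in its place. On simulated data of this comparison the fit was tested before use. A bound is the bright tissue's mean over the mean of the dim tissue's detection limit, in the red channel after loess and Aquantile scaling or in the sample channel after quantile scaling, whichever gave the lower fold. Genes named are the 10 largest called differences each way among those above background on all 8 arrays, a set of xenobiotic and tissue genes, up to 4 members of each list with the largest calls each way, and members called against their list or needed for its role. Some genes that this rule names are not reported here. The members, lists and tests were chosen with earlier results of these data known. Alternatives were the scanner's ratio, median centring, quantile scaling, normexp background (offset 50), the sample channel alone, other filters, no mouse block, a slide block, each mouse left out and the mean of a gene's probes.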

Additional observations from a re-analysis of the deposited data

Results flagged for a closer look

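Among 298 groups of 4 arrays of named genes that were above background throughout, 17 (5.7%) held a mouse far from the others by Dixon's test, and chance gives about 1 in 20. There were 9 in lung and 8 in liver. The lung of mouse 4 was the low value for Cfd (1.49, nearest other lung 4.79), Mgp (5.65, nearest 6.42), Fmo5 (3.73, nearest 4.33), Sult1d1 (0.71, nearest 1.76), Foxa1 (3.1, nearest 3.74) and Ephx3 (1.01, nearest 1.23). Cfd is a fat marker, and the fat marker median was also lowest in that lung (1.31, against 2.22 to 2.62), and that lung array had the lowest median red intensity (78). The part of either in these values was not tested. In lung, Cyp2s1 stood high in mouse 1 (3.84, nearest 3.14), Mat2a low in mouse 1 (0.26, nearest 0.48) and Abca3 low in mouse 2 (3.02, nearest 3.37).

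In liver, mouse 2 was high for Hnf4a (6.10, nearest 5.89) and Foxa3 (5.80, nearest 5.17) and low for Gclc (2.58, nearest 3.09) and Gstm7 (4.40, nearest 4.82). Mouse 1 was low for Cyp2c54 (9.09, nearest 9.57), mouse 3 was high for Cyp8b1 (6.90, nearest 6.17), and mouse 4 was low for Cbr3 (-2.52, nearest -2.40) and high for Ctsh (6.58, nearest 6.46).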

How the results depend on the processing

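Counts at 1.5-fold and 8-fold moved by more than 1.5 times under 3 alternatives. Median centring gave 4828 probes higher in lung, 438 at 8-fold, and 738 of the called probes had the opposite sign. The scanner software's ratio gave 2340 at 8-fold in lung and 1660 in liver. Requiring background to be exceeded on all 8 arrays gave 5572 higher in lung, 473 at 8-fold in lung and 469 in liver, because fewer probes were tested (18026). Leaving out each mouse gave 8307 to 8570 probes higher in lung, 6153 to 6304 in liver, and 853 to 933 and 982 to 990 at 8-fold. Without the replicate block the counts were 8410 and 6169, and with slide as a random block (correlation -0.486) 8431 and 6186, and neither changed the call of a named gene.

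For 187 named genes tested under each normalisation, a turn was counted where the gene was called in the main fit or in the alternative set against it. Sign changes called in neither fit, as for Aldh1a1 in the sample channel, are left out. The direction turned for Aldh1a1 (2.30), Aldh1a7 (0.69), Ces1d (0.72), Ctsh (2.68), Cyp2f2 (2.14), Fmo1 (1.89), Foxa2 (2.37) and Sult1a1 (0.38) under quantile scaling. In the sample channel it turned for Cyp2f2 (1.31), Fmo1 (1.19) and Hmox1 (-0.09). Under median centring it turned for Cebpb (-0.01), F10 (-0.66), Hsp90ab1 (-0.26), Inmt (-0.60) and Slc10a1 (-0.17), and with the mean of a gene's probes for F10 (-1.51) and Slc10a1 (-2.40). Under a normalisation, medians of lists turned sign by at least 0.5 for the broadly used genes (-0.85) and ribosomal proteins (-0.53) under median centring, the flavin monooxygenases (-0.02) with the scanner's ratio and the red cell precursors (0.19) under quantile scaling. Where only genes above background on all 8 arrays were kept, they turned for the genes of glucose production (0.40), club cells (-0.67), uptake transporters (0.62), stellate cells (0.30), xenobiotic receptors (0.96) and flavin monooxygenases (-0.19). Apart from the narrower set of probes, the cause was not tested. Dim probes limit small differences of genes near background.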

Other observations

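In 1 of the 9 dosed mice, mouse 12, 3 genes chosen after their values were seen had a small tissue difference. Elovl3 was 0.81 in that mouse, Hsd3b5 0.01 and Cyp4a12a -1.56. The medians over the dosed mice were -5.41 for Elovl3, -6.48 for Hsd3b5 and -8.45 for Cyp4a12a.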
